A study of Mus musculus with 2 samples.

Results

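The SOCS family (suppressors of cytokine signalling) comprises Socs1 to Socs7 and Cish, all 8 of which were found by gene symbol among the 55536 genes quantified. They were read in total RNA-seq of primary neutrophils from mouse spleen. The animals were virgin adult males at 65 days of the strain B6CASTF1/J, the F1 of a C57BL/6 female and a CAST Eij male. The labels give a single group of 2 libraries and name no treatment; the libraries are numbered as biological replicates 1 and 2. For each library 300 ng of RNA was used, and ERCC spike-ins were added. A single donor identifier stands on the pair, so the labels do not show that separate animals were used. The p-values measure only counting error in these samples. Further spread between the libraries, which may be technical, is not covered by them. How the cells were isolated is not given in the sources used here.

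SOCS proteins switch off cytokine receptors that signal through JAK kinases and STAT transcription factors. An SH2 domain binds phosphotyrosine on the receptor or kinase, and the C-terminal SOCS box recruits elongins B and C and cullin 5, which mark the bound protein for degradation. Several SOCS genes are themselves STAT targets, so that a cytokine induces its own inhibitor. In neutrophils SOCS3 is known as the brake on the G-CSF receptor.

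Socs3 was the highest member in both libraries, at 17.44 and 19.58 TPM in replicates 1 and 2, and took 47.7% and 45.3% of the family's summed TPM. TPM, the length-corrected share of transcripts, allows for transcript length, so levels of different genes can be compared. Socs6 followed at 6.28 and 10.32 TPM, while Socs4, Socs7 and Socs5 lay between 2.44 and 4.41 TPM. Socs1, Socs2 and Cish lay between 0.45 and 1.65 TPM. Of the 8 members, 6 reached 1 TPM in both libraries, and Socs2 and Cish did not. The family median was 3.39 and 2.49 TPM, beside 4.03 and 4.87 TPM over the 14633 protein-coding genes detected in either library.

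The sequences below show where the Socs3 promoter carries a STAT-type motif, and how the transcripts of Cish and Socs7 that the results turn on differ from one another. RefSeq promoter entries (build GRCm38.p6, the assembly also named mm10) were matched for 4 members: Socs1, Socs3, Socs4 and Cish. The 250 bases before the RefSeq start were searched for the STAT palindrome TTCNNNGAA and for its form with a spacer of 4 bases in place of 3, both of which read the same on either strand. The shorter form occurs in 7.02% and the longer in 5.85% of all 32851 promoter windows of that length. Socs3 held 1 match, TTCTTAGAA, beginning 154 bases before the RefSeq start and printed in capitals, and the Socs1 and Socs4 windows held neither motif. In GENCODE M21 the coding transcript Socs3-201 starts further downstream, at 117969186, and the window lies within the span of the noncoding Socs3-202. The Cish window lies inside Cish-201, which starts at 107296026 in GENCODE M21, so it is not read as sequence before the gene. Socs1 is printed for comparison, since both genes encode members with a kinase inhibitory region. The Socs3 window is chr11:117969367-117969616 and the Socs1 window chr16:10785537-10785786, both on the minus strand.
Socs3 promoter: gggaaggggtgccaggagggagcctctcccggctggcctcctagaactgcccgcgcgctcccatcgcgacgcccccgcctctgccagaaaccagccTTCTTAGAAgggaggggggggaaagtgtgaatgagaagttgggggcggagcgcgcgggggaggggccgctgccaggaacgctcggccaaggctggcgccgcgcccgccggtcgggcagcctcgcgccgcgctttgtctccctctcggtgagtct
Socs1 promoter: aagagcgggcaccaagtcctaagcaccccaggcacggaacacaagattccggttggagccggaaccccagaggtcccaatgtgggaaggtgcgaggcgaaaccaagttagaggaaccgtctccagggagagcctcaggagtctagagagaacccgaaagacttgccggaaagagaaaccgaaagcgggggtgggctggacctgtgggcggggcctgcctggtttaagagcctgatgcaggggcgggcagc

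Cish-201, Cish-204 and Cish-202 share 20 bases at the end of the first coding exon of Cish-201 (chr9:107297015-107297034, plus strand, mm10, GENCODE M21) and then part. Cish-205 starts further downstream, at 107299155, and does not hold these bases. Capitals mark the next 20 bases. In Cish-201 they are the next coding exon, in Cish-204 a later coding exon after a skipped one, and in Cish-202 the start of the intron.
Cish-201: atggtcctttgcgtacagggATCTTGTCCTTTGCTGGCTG
Cish-204: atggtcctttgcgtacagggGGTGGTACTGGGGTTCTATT
Cish-202: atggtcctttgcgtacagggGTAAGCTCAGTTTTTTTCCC
In Socs7 the shared bases come last (chr11:97377936-97377955, plus strand, mm10). The capitals before them are the preceding coding exon in Socs7-201 and, in Socs7-202, an exon that lies in an intron of Socs7-201.
Socs7-201: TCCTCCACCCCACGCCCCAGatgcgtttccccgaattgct
Socs7-202: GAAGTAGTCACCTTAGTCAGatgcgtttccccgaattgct

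The libraries held 18387963 (replicate 1) and 18090108 (replicate 2) expected counts, of which the family took 2346 and 2215. The neutrophil label was checked against 12 markers such as S100a8, Ly6g and Cxcr2. All 12 exceeded 1 TPM in both libraries, and they summed to 40282 and 80359 TPM. Markers of other spleen cells had lower sums: 9 T cell genes summed to 32.8 and 54.6 TPM, of which Cd3d alone gave 31.77 and 53.32, and Trbc2 was at 0. The 6 NK cell genes summed to 0.49 and 0.53 TPM, with Ncr1 and Eomes at 0. B cell (7 genes), erythroid (7), endothelial and stromal (6) and monocyte and macrophage genes (9) summed to 55.8, 69.6, 2.80 and 395 TPM in replicate 1, and to 128, 164, 4.24 and 564 TPM in replicate 2. Ighm gave 51.14 and 109.18 TPM of the B cell sum. Ly6c2 gave 253.27 and 371.68 TPM of the monocyte sum, a level above that of the neutrophil marker Ly6g (221.42 and 370.09 TPM). In the same list Csf1r (68.59 and 80.53 TPM), Ccr2 (32.9 and 47.06) and Cd68 (25.17 and 45.72) stood above every SOCS gene. Adgre1 and Vcam1 lay below Socs3, and C1qa, C1qb and C1qc were at 0.2 TPM or less. The share of SOCS reads that came from other cells was not tested. In bulk RNA, fewer cells of a type and less RNA per cell cannot be told apart.

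Socs1 and Socs3 encode the members that also inhibit JAK catalysis directly. Socs3 (ENSMUSG00000053113.3, chromosome 11, 117966079 to 117970047 in mm10, as for the positions that follow) had 842 and 820 expected counts and a level of 18.51 ± 1.51 TPM (SD, n = 2). It stood above 76.6% and 75.7% of the detected protein-coding genes. Socs1, the inhibitor best known for limiting interferon-gamma signalling (ENSMUSG00000038037.5, chromosome 16, 10782240 to 10785536), had 75 and 76 counts and 1.37 ± 0.170 TPM. The values of both genes were close in the libraries and did not overlap between the genes.

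CIS and SOCS2 are linked to receptors that signal through STAT5. Cish (ENSMUSG00000032578.7, chromosome 9, 107296026 to 107302784) had 46 and 32 counts, at 0.54 and 0.81 TPM, or 0.675 ± 0.191 TPM. Its counts were thus higher in replicate 1 and its TPM in replicate 2. Socs2, a regulator of growth hormone signalling (ENSMUSG00000020027.18, chromosome 10, 95385362 to 95417180), had 12.81 and 27 counts, at 0.45 and 1.65 TPM, or 1.05 ± 0.849 TPM. The deposited interval for its TPM, whose level is not stated, ran from 0.812 to 2.23 in replicate 1 and from 1.72 to 3.81 in replicate 2, and neither contains the deposited TPM.

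Socs4 to Socs7 encode the members with long N-terminal regions. SOCS4 and SOCS5 have been linked to the EGF receptor, SOCS6 to KIT, and SOCS7 to insulin signalling. Socs6 (ENSMUSG00000056153.15, chromosome 18, 88665224 to 88927481) had 376.05 and 391 counts and 8.30 ± 2.86 TPM. Socs4 (ENSMUSG00000048379.9, chromosome 14, 47276931 to 47296102) had 434 and 443 counts and 4.125 ± 0.403 TPM. Socs7 (ENSMUSG00000038485.5, chromosome 11, 97362551 to 97398542) had 413 and 298 counts, at 3.81 and 2.54 TPM, or 3.175 ± 0.898 TPM. Socs5 (ENSMUSG00000037104.9, chromosome 17, 87107679 to 87137839) had 147 and 128 counts and 2.705 ± 0.375 TPM. Among these 4, Socs6 was the highest in both libraries, and the TPM values of the other 3 overlapped in part.

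**Figure D1:**
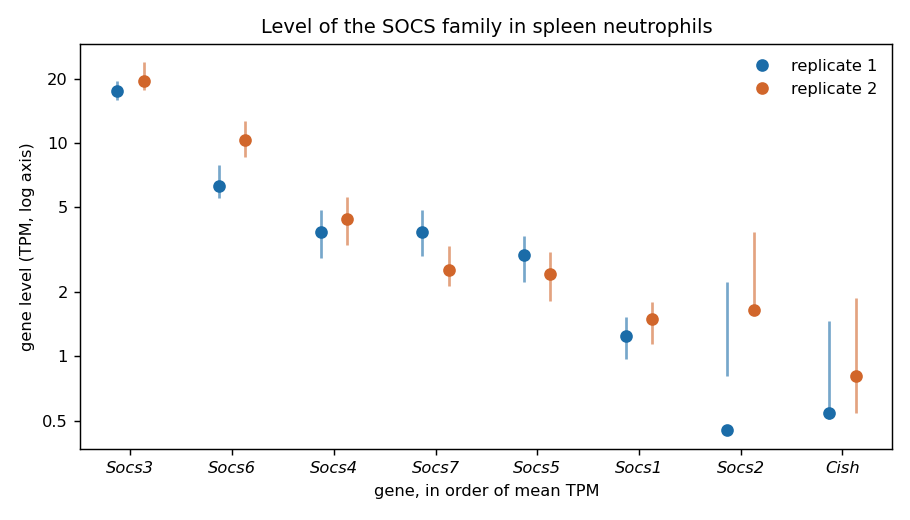
Level of each SOCS gene in TPM (log axis) in replicate 1 (blue) and replicate 2 (orange), with the deposited interval as a line whose level is not stated. Socs3 is highest in both libraries, and the Socs2 points lie below their own intervals.

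Neighbours in the order of levels were compared within each library on log2(TPM + 0.1), and called apart when the mean of both differences exceeded their SD. The order came from the same values, so a positive mean difference was nearly fixed in advance. With 2 libraries the rule is a description and not a test. Of 7 neighbouring pairs, 3 were apart. Socs3 exceeded Socs6 by 1.19 ± 0.38, Socs6 exceeded Socs4 by 0.95 ± 0.36, and Socs5 exceeded Socs1 by 0.93 ± 0.36. Socs4 was not apart from Socs7 (0.39 ± 0.54), nor Socs7 from Socs5 (0.20 ± 0.21). The steps from Socs1 to Socs2 (0.58 ± 1.01) and from Socs2 to Cish (0.36 ± 0.82) changed sign between the libraries.

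The place of Socs6 depended on the length by which its reads were divided. A gene's effective length here is the average over its transcripts, weighted by their estimated shares. For Socs6 it was 2747 nt in replicate 1 and 2040 nt in replicate 2, although its longest coding transcript, Socs6-201, has 6036 nt. When counts were divided by the effective length of the longest coding transcript instead, an alternative chosen after seeing the data, Socs6 stood at 3.23 ± 0.454 TPM and Socs4 at 3.23 ± 0.413 TPM. On that scale Socs3 still led at 16.9 ± 1.60 TPM. Socs7 stood at 2.53 ± 0.295, Socs5 at 1.48 and 1.52, Socs1 at 1.34 ± 0.165, Cish at 0.697 ± 0.0992 and Socs2 at 0.481 ± 0.289 TPM. Socs3 thus led on either length, while the lead of Socs6 over Socs4 was present with the deposited lengths and absent with this fixed one. Socs6-201 held only 27.9% and 26.9% of Socs6 counts by RSEM (described below), and the 2814 nt Socs6-203 held 45.0% and 40.8%. By the second quantification (kallisto, also described below) Socs6 stood above Socs4, at mean levels of 9.33 and 2.90 TPM.

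For each gene the counts of both libraries entered a two-sided exact binomial test, given library sizes scaled by TMM and adjusted by Benjamini-Hochberg over all 15118 genes tested. This compares 2 libraries and not conditions. All 8 members had enough counts, and 1 of 8 (Socs7) passed an adjusted p of 0.05, where 32.1% of all genes did. None of the 8 was both called and at least 2-fold apart, where 5.88% of all genes were. Socs7 was higher in replicate 1 by 0.49 on the log2 scale (95% interval 0.27 to 0.71 for counting error, adjusted p 5.79e-05 by the exact binomial test), but lower by the spike-in scaling, at -0.26. Spike-ins took 0.423% and 0.260% of the counts in replicates 1 and 2. The genes higher in replicate 1 at that threshold were 15% of all genes. Beside this call, all 12 neutrophil markers, 6 of 7 B cell and 6 of 7 erythroid markers passed the test as higher in replicate 2. So did 4 of 6 monocyte and macrophage and 1 of 4 T cell markers tested. Of the NK cell and the endothelial and stromal markers tested, 0 of 2 and 0 of 5 did. Over all genes, 17% were higher in replicate 2. The part of these cell types in the Socs7 difference was not tested.

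The other 7 members did not pass with TMM scaling. With spike-in scaling 6 of them (all but Cish) did, all lower in replicate 1, where 75.1% of all genes passed and their median ratio was -0.74. Socs3, Socs4 and Socs6 then stood at -0.69, -0.76 and -0.78. With TMM scaling Socs3 differed by 0.05 (interval -0.09 to 0.20), Socs4 by -0.01 (-0.21 to 0.18) and Socs6 by -0.04 (-0.25 to 0.17), so with that scaling a difference of 1.5-fold lies outside these intervals. For Socs1 the interval ran from -0.48 to 0.48 and for Socs5 from -0.14 to 0.57. Cish (0.53, -0.14 to 1.24) and Socs2 (-1.01, -2.12 to -0.03, adjusted p 0.101 by the exact binomial test) had too few counts for a narrow interval. These intervals and tests cover counting error alone. Over 13089 genes edgeR gave a common biological coefficient of variation of 0.164. The median size of the log2 count ratio was 0.14 over the 8 members and 0.24 over the 15016 genes tested with TPM above 0 in both libraries.

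Count and TPM ratios differed for several members. Effective length differed over 1.2-fold between the libraries in 5 of 8 members (Cish, Socs2, Socs5, Socs6 and Socs7), beside 18.9% of the protein-coding genes tested. For Socs6 the counts differed by -0.04 on the log2 scale and the TPM by -0.72, while the effective length differed by 0.43. For Cish the counts differed by 0.53 and the TPM by -0.58, with an effective length of 3899 nt in replicate 1 and 2127 nt in replicate 2. For Socs2 the counts differed by -1.01 and the TPM by -1.87, but the counts of the second deposited quantification, described below, by -0.38. Over all genes tested the median TPM ratio was -0.24.

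**Figure D2:**
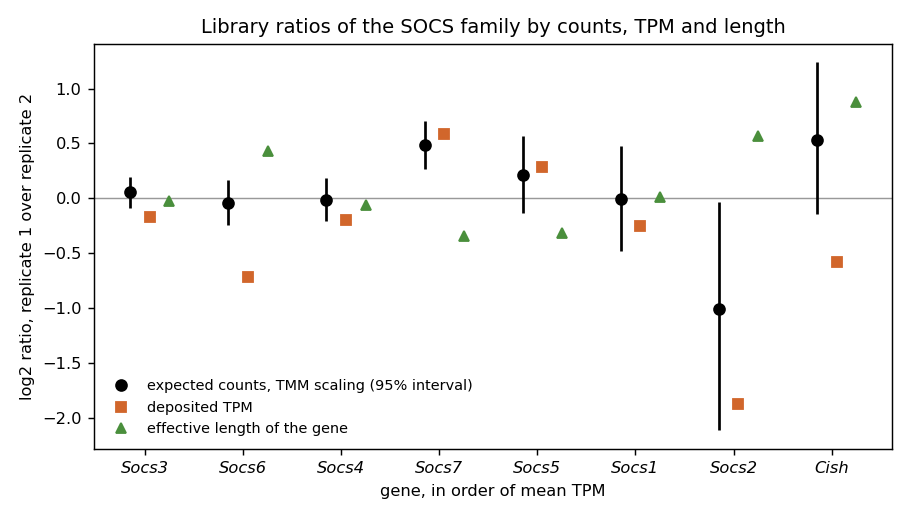
Log2 ratio of replicate 1 over replicate 2 for each SOCS gene, by expected counts after TMM scaling (black, with the 95% interval for counting error), by deposited TPM (orange) and for the gene's effective length (green). The count interval of Socs7 lies above 0, and Cish has count and TPM ratios of opposite sign, 0.53 and -0.58.

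The members' reads were then followed to single transcripts. The annotation holds 40 transcripts for the 8 genes: 14 with the gene's whole coding sequence, 10 coding transcripts with a shorter one, and 16 of other types. In 7 members, all but Cish, over 50% of the counts fell on transcripts with the whole coding sequence, in both libraries and in both deposited quantifications, called RSEM and kallisto here after the layout of their tables. By TPM this held for only 3 members, because a short transcript turns a few reads into a large share. Socs3-201 took 96.0% and 95.8% of the gene's counts by kallisto and 73.3% and 70.5% of its TPM. The rest of the TPM came from the 490 nt transcript Socs3-202, with 36.9 and 36.5 estimated counts. By RSEM Socs3-201 took 88.4% and 90.7% of the TPM.

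In Socs7 the quantifications differed. By kallisto the 506 nt noncoding Socs7-202, whose boundary is printed above, held 22.1 of 464 counts in replicate 1 and 0 of 351 in replicate 2. Those 22.1 counts made 54.9% of the gene's TPM. Without Socs7-202, Socs7-201 alone stood at 2.29 and 2.30 TPM by kallisto, while the gene's summed TPM was 5.08 and 2.30. The counts of Socs7-201 were nonetheless 441.9 and 351 by kallisto, and 402.92 and 296.22 by RSEM. By RSEM Socs7-202 held 10.08 and 1.78 counts, or 29.9% and 9.41% of the TPM, and led in neither library. Of the 506 nt, 250 lie in an intron of Socs7-201 and 256 in its coding exons.

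Cish was the exception among the members. Cish-201, the one transcript with the whole coding sequence of 771 nt (stop codon left out), held 0 of 46 and 0 of 32 counts by RSEM, and 0 of 61.0 and 10.8 of 39.0 counts by kallisto. Cish-202, annotated as a processed transcript, covers 2772 nt of Cish-201 intron. It held 34.9 and 9.65 counts by RSEM and 50.7 and 17.0 by kallisto. Cish-204, which skips an exon and codes for 186 nt, held 11.12 and 21 counts by RSEM. The leading transcript by TPM was Cish-205 in both libraries by kallisto, on 4.05 and 1.91 counts of a 371 nt transcript, but Cish-202 and Cish-204 by RSEM. Transcript types not coding for protein together took 89.8% and 48.6% of the Cish counts by kallisto and 75.8% and 34.4% by RSEM. With 32 to 61.0 counts in all, the division among these transcripts was not resolved, and whether reads come from spliced or unspliced RNA was not tested.

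The remaining members divided their reads among several transcripts. Both Socs1 transcripts carry the same 636 nt of coding sequence. Kallisto placed nearly all Socs1 reads on Socs1-202, while RSEM divided them, with 41.98 and 33.79 counts there. Socs5-201 held 69.3% and 75.8% of Socs5 counts by kallisto. Socs5-203, of 978 nt and with a shorter coding sequence, took 53.0% of the TPM in replicate 1 on 27.5 counts. In Socs2, transcripts with the whole coding sequence held 80.1% and 59.5% of the counts by kallisto. Those with a shorter one took 54.9% of the TPM in replicate 2 on 5.87 counts. In Socs6, transcripts with the whole coding sequence took 91.4% and 86.2% of the counts but 66.5% and 45.4% of the TPM by kallisto. In replicate 2 the 370 nt Socs6-206 gave 38.8% of the TPM from 14.3 counts by kallisto, and the 453 nt Socs6-208 gave 42.0% from 28.4 counts by RSEM. The leading transcript was the same in both libraries and both tables for 2 members, Socs3 and Socs4.

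**Figure D3:**
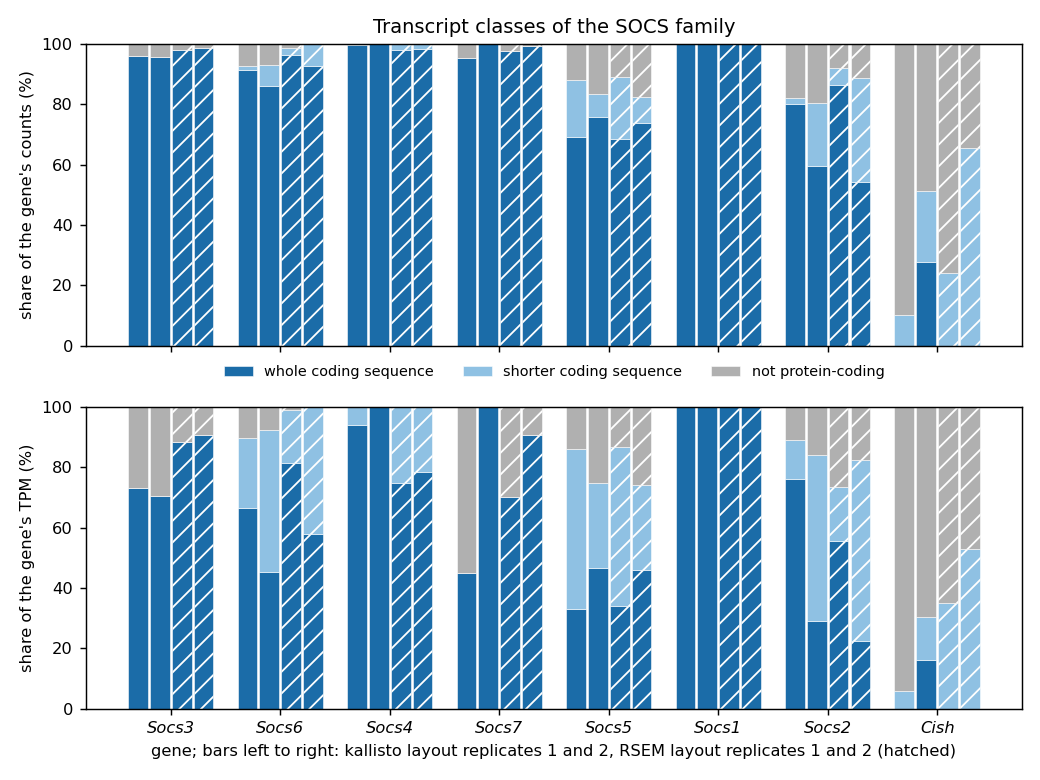
Share of each SOCS gene's counts (top) and TPM (bottom) on transcripts with the whole coding sequence (dark blue), a shorter coding sequence (light blue) or of other types (grey), for kallisto replicates 1 and 2 and, hatched, RSEM replicates 1 and 2. Counts fall mostly on transcripts with the whole coding sequence in every gene except Cish, while TPM shares move more.

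Gene totals of both quantifications were closer than the transcripts. In both libraries together, 0 members differed over 2-fold between the quantifications. Of the 13336 genes with a mean of at least 1 TPM by either, 13.1% did, and of the 10378 protein-coding ones 4.19% did. Cish alone exceeded 2-fold in 1 library, with 1.47 TPM by kallisto and 0.54 by RSEM in replicate 1. In replicate 2 it had 1.14 and 0.81 TPM. Socs3 had 18.5 and 23.0 TPM by kallisto. Socs2 had 22.8 and 28.3 counts by kallisto, beside 12.81 and 27 by RSEM. Its log2 count ratio with TMM scaling was -0.38 by kallisto (adjusted p 0.587 by the exact binomial test) and -1.01 by RSEM.

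Shared sequence was checked, since reads that fit several genes are divided among them. Runs of 31 bases in each member's transcripts were looked for in all other annotated genes. Socs1, Socs3, Socs5 and Socs7 had none on the same strand. Socs6 shared 7.28% of its runs and Socs2 6.18%, mostly with the processed pseudogenes Gm9449 and Gm9847. These were also the 2 members whose expected counts were not whole numbers (within 0.005). Gm9449 had 4.95 and 0 counts and Gm9847 had 0 and 0, beside 376.05 and 391 for Socs6. On the opposite strand 10.4% of the Cish runs lay in other genes, and the overlapping antisense gene Gm17041 had 0 counts in both libraries. Whether the counting used strand is not given in the sources used here.

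The rest of the pathway was read from lists, beginning with the ligands. Of 25 cytokine ligands, 13 had 0 counts in both libraries, among them Il2, Ifng and Epo, and 4 reached 1 TPM in both. Osm, the IL-6 family cytokine oncostatin M, was highest at 126 ± 36.1 TPM, followed by Csf1 at 24.7 ± 1.98 and Il15 at 17.3 ± 5.50 TPM. Il27, with 11 and 30 counts, was the one ligand both called and at least 2-fold apart, with a log2 ratio of -1.39 (adjusted p 0.0166 by the exact binomial test). Of 6 ligands tested, 1 was called higher in replicate 1 (Csf1) and 3 in replicate 2, where 15% and 17% of all genes were. The receptor gene of Csf1, Csf1r, stands among the monocyte markers above and is not among the receptors read below.

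Of 29 receptors, 16 reached 1 TPM in both libraries. The G-CSF receptor gene Csf3r led at 535 ± 81.4 TPM, followed by the GM-CSF receptor chains Csf2ra at 410 ± 53.6 and Csf2rb at 89.1 ± 21.8 TPM. Among 25 tested, 7 were called higher in replicate 1 and 10 in replicate 2, beside 15% and 17% of all genes. Among those at least 2-fold apart, counts were few: Il7r with 6 and 31, Lepr with 11 and 1, and Il2rb with 13 and 2. All 11 JAK and STAT genes exceeded 1 TPM, led by Stat3 at 162 ± 10.6, Stat6 at 88.1 ± 9.43 and Jak1 at 78.2 ± 5.69 TPM. Of these, 1 was called higher in replicate 1 and 3 in replicate 2, against the same 15% and 17% of all genes.

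The 20 STAT target genes had a median of 28.5 and 36.6 TPM, with Fos, Junb and Mcl1 highest at 900 ± 372, 448 ± 119 and 356 ± 68.9 TPM. In this list 13 genes were higher in replicate 2 and 2 in replicate 1, where 17% and 15% of all genes were. The median count ratio of these targets was -0.27 on the log2 scale, beside 0.03 for the SOCS family. The markers of neutrophils (-0.48), B cells (-1.77), erythroid cells (-1.05), T cells (-0.73) and monocytes and macrophages (-0.18) had medians of the same sign. Those of NK cells (0.20) and of endothelium and stroma (0.32) had the opposite sign. The part of these cell types in the targets' shift was not tested.

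All 12 partners of the SOCS box exceeded 1 TPM in both libraries, with a median of 22.6 and 33.3 TPM. The ubiquitin ligases Arih2 and Arih1 led at 77.4 ± 7.34 and 70.7 ± 0.516 TPM, and the elongin B gene Elob stood at 59.2 ± 29.5 TPM. Of the 12, 3 were called higher in replicate 1 and 4 in replicate 2, beside 15% and 17% of all genes, which also stand against the counts of the next lists. The 13 other JAK-STAT inhibitors all exceeded 1 TPM too, with a median of 11.2 and 15.4 TPM. The phosphatase genes Ptprc (CD45) and Ptpn6 (SHP-1) stood at 309 ± 49.0 and 130 ± 35.7 TPM and the ubiquitin ligase gene Cbl at 83.3 ± 2.89 TPM. In this list 1 was higher in replicate 1 and 4 in replicate 2. Among 27 other genes of SOCS box proteins, 10 had 0 counts in both libraries and 10 reached 1 TPM in both. Wsb1 was highest at 110 ± 8.52 TPM, with Asb7 at 23.8 ± 1.72 and Wsb2 at 23.3 ± 1.12 TPM. Of the 14 tested, 2 were higher in replicate 1 and 0 in replicate 2.

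**Figure D4:**
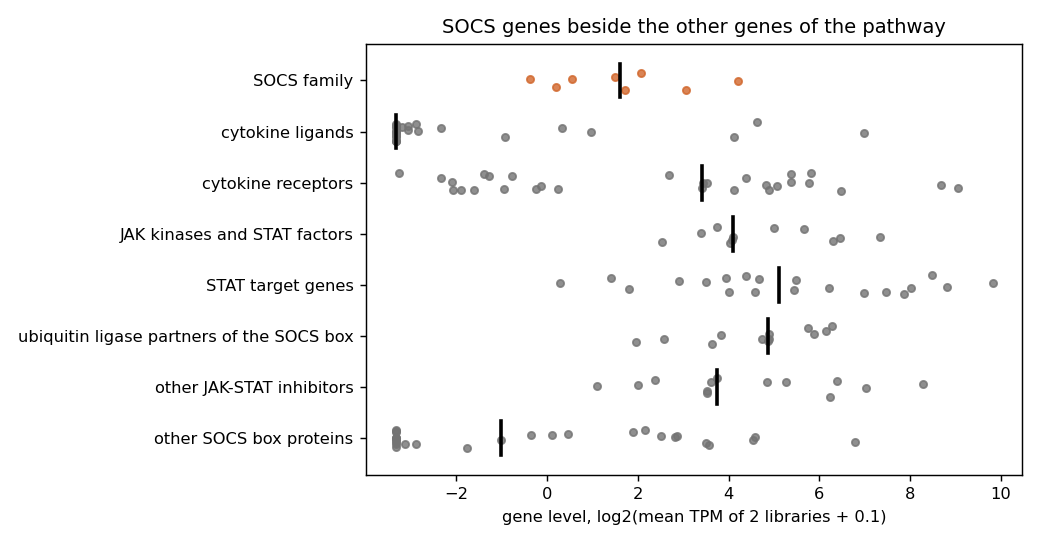
Each point is a gene's level as log2 of the mean TPM of both libraries plus 0.1, by list, with SOCS genes in orange and the list median as a black bar. The SOCS median lies below those of the JAK and STAT, STAT target and SOCS box partner lists and above those of the ligands and of the other SOCS box proteins.

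The genes closest in level to each member were found among the 135 pathway genes, by Euclidean distance of log2(TPM + 0.1) over 2 libraries. Stat4 (15.13 and 18.71 TPM, distance 0.21) and Jak2 (14.60 and 18.94 TPM, distance 0.26) lay nearest to Socs3. Asb13 lay nearest to Cish, at 0.55 and 0.82 TPM (distance 0.03). Nearest to the others were Ccnd2 for Socs6, Cblb for Socs4, Asb3 for Socs7, Myc for Socs5, Spsb1 for Socs1 and Il27 for Socs2. With 2 libraries this is a likeness of level and not of a pattern across conditions.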

How the data were processed

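Total RNA was sequenced from 2 libraries. The authors deposited, for each, a gene and a transcript table of expected counts, TPM and FPKM with percent isoform shares (columns as RSEM writes), and a transcript table of estimated counts and TPM (columns as kallisto writes), per the file headers. The accompanying notes name mm10 and GENCODE M21. Aligner and versions: not given in the sources used here.

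Counts were rounded and entries that name no gene (0.424% and 0.260% of counts, chiefly spike-ins) left out. Sizes were scaled with edgeR 4.0.16 (TMM). Genes whose counts in the pair summed to 10 or more entered the exact binomial test (scipy 1.17.1), with 0.5 added for log2 ratios, and Benjamini-Hochberg adjustment at 0.05. The test was run on simulated data with counting error alone, so that run does not cover further spread between libraries. Alternatives were DESeq2 1.42.0 size factors, library totals, ERCC totals, no minimum, other units, and each library alone. TPM of 1 count per kb was 0.0458 and 0.0538. Intervals cover counting error only.

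The members and lists were chosen with earlier results of these data known. Named genes are all members, the 3 highest of each pathway list, those at least 2-fold apart with an adjusted p under 0.05, and the closest genes in level; 1 gene under this rule is not reported here.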

Additional observations from a re-analysis of the deposited data

How the results depend on the processing

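Calls between the libraries depended on the scaling and on a fold minimum. With ERCC totals 7 members were called, all lower in replicate 1, beside 75.1% of all genes, and the median ratio of all genes was then -0.74 on the log2 scale. Under that scaling 4 members changed sign, Socs3 to -0.69, Socs7 to -0.26, Socs5 to -0.53 and Cish, called under neither scaling, to -0.21. With a minimum of 1.5-fold, 0 members were called by the exact binomial test, against 1 (Socs7) at the same adjusted p without that minimum. At an unadjusted p under 0.05 and no fold minimum, 2 members passed. The share of all genes was not computed for that fold minimum or for the unadjusted p, so these counts stand without a background. Library totals, DESeq2 size factors, no count minimum and kallisto counts each called 1 member, Socs7. In that order, these settings called 32.4%, 31.1%, 21.3% and 31.1% of all genes tested. The DESeq2 size factors came out as 1 and 1, so that setting compares unscaled counts. Members at 1 TPM in both libraries ranged from 5 to 8 over thresholds and units, and from 6 to 7 with either library alone. With either library alone, members over 2-fold apart between the quantifications ranged from 0 to 1, and members led by a coding transcript from 6 to 7. Neighbours apart in level ranged from 3 to 4, and the pairs differed: by kallisto TPM they were Socs3 over Socs6, Socs4 over Socs5 and Socs5 over Cish, with Cish above Socs1 and Socs2. No paired analysis was possible because the labels give a single group. The depth of 12.81 to 842 counts per member limits Socs2, Cish and Socs1, and transcript shares built on a few counts are the least certain values.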
